A study of Mus musculus with 4 samples.

Results

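Myogenic cells from the hindlimb muscles of *mdx* mice were compared with those of B10 mice, the healthy strain on the same background. Both groups were sorted by flow cytometry as ITGA7+/VCAM+/Lin- cells, that is, cells carrying α7-integrin and VCAM1 and lacking CD11b, SCA1, CD45 and CD31. Cells of 2 mice were pooled for each strain and sequenced as 1 droplet-based 3′ single-cell RNA library, so each strain is a single sample. B10 is given as C57/Bl10ScsSn at 15 weeks of age and *mdx* as C57BL/10ScSn-Dmdmdx at 11 weeks, and the study's methods give adult male mice. Strain, age and library therefore differ together, and their parts in any difference cannot be told apart. A cell was kept when it held 1000 to 5000 detected genes, at most 8% mitochondrial transcripts and at least 2 unique molecular identifiers (UMIs, 1 for each captured transcript) summed over *Pax7*, *Myf5*, *Myod1* and *Myog*. This left 4611 of 9931 barcodes in B10 and 5075 of 7173 in *mdx*, together 9686 of 17104 barcodes of these libraries and of 27425 barcodes in the series.

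Satellite cells are the stem cells of skeletal muscle, and they lie between the muscle fibre and its basement membrane. In healthy adult muscle most are quiescent and express the transcription factor *Pax7*. After damage they enter the cell cycle with *Myf5* and *Myod1*, and their progeny switch on *Myog*, leave the cell cycle and fuse into fibres that build sarcomeres. The *mdx* mouse lacks dystrophin through a nonsense mutation of its gene, *Dmd*. Dystrophin links the fibre's cytoskeleton to the surrounding matrix, and muscle without it degenerates and regenerates repeatedly.

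For each library the UMIs of a gene were added up over kept cells and scaled to counts per 1000000 UMIs (CPM). *mdx* was set over B10 as a log2 ratio, so that 1 is a doubling. With 1 library a side no test was possible, and no p-value is given. Intervals in parentheses have a confidence level of 95% and are exact, Poisson for CPM and binomial for ratios and for shares of cells. They cover counting error only and not differences between mice. A gene was compared when it reached 10 CPM in at least 1 of the libraries, and it was counted as higher or lower when its ratio was at least 2-fold. A gene under 10 CPM in 1 library was compared only because of its level in the other. List counts that include such genes are a description and lend no support to a direction. This holds for every group below, also where it is not repeated. In such sums, a change in the share of cells that express a gene and a change in the transcripts per cell cannot be told apart.

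*Dmd* (ENSMUSG00000045103; chrX:82948870-85206141, plus strand, mm10) was counted at 325 CPM in B10 (320.0 to 331) and 127 in *mdx* (123 to 130.1). The log2 ratio was -1.36 (-1.41 to -1.32), so the transcript was lower in the strain with the mutated gene and was still readily counted. The *mdx* allele carries a point mutation and keeps the 3′ end that this assay counts, so these values give transcript level and do not read the mutation. With each cell thinned to 3000 UMIs, 58.2% (56.8 to 59.6) of B10 cells and 32.3% (31.0 to 33.6) of *mdx* cells had a *Dmd* UMI, against 87.0% and 55.7% without thinning. Cells within the same limits that had no UMI of the 4 selection genes, 116 in B10 and 1293 in *mdx*, carried *Dmd* at 331 and 171 CPM and in 59.6% and 34.4% of thinned cells. The shares in kept cells did not exceed those in the other cells, so they are not read as specific to myogenic cells, and the level was lower in *mdx* in both kinds of cell.

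The kept cells held 42059369 UMIs in B10 and 44448258 in *mdx*, with medians of 8503 and 7279 UMIs per cell. The cells without selection genes had medians of 8782.5 and 6909. Mitochondrial transcripts made up a median of 4.02% of UMIs in kept B10 cells and 2.99% in kept *mdx* cells. Among all barcodes, 4143 in B10 and 272 in *mdx* were over the limit of 8%. The libraries shared 13 barcodes, of which 5 were kept in both. Of the B10 barcodes, 4739 had fewer than 1000 genes, against 21 in *mdx*. At this depth, 0 UMIs of a gene allows up to 0.0713 CPM in B10 and 0.0675 CPM in *mdx*. Of the cells within the limits on genes and mitochondrial UMIs, 96.8% were kept in B10 and 76.1% in *mdx*.

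Of 27998 genes, 8580 reached 10 CPM in a library. In *mdx*, 481 of them (5.61%) were at least 2-fold higher and 403 (4.7%) at least 2-fold lower, together 10.3%. The interval of the ratio lay wholly past 2-fold for 408 and 309 genes. Among large differences more were upward, with 205 genes were at least 4-fold higher and 82 at least 4-fold lower, and with 74 against 12 past 16-fold. The median log2 ratio over all compared genes was -0.01, with quartiles of -0.33 and 0.30, so most genes were well within 2-fold. The gene groups that follow are read against these shares of all compared genes.

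**Figure D1:**
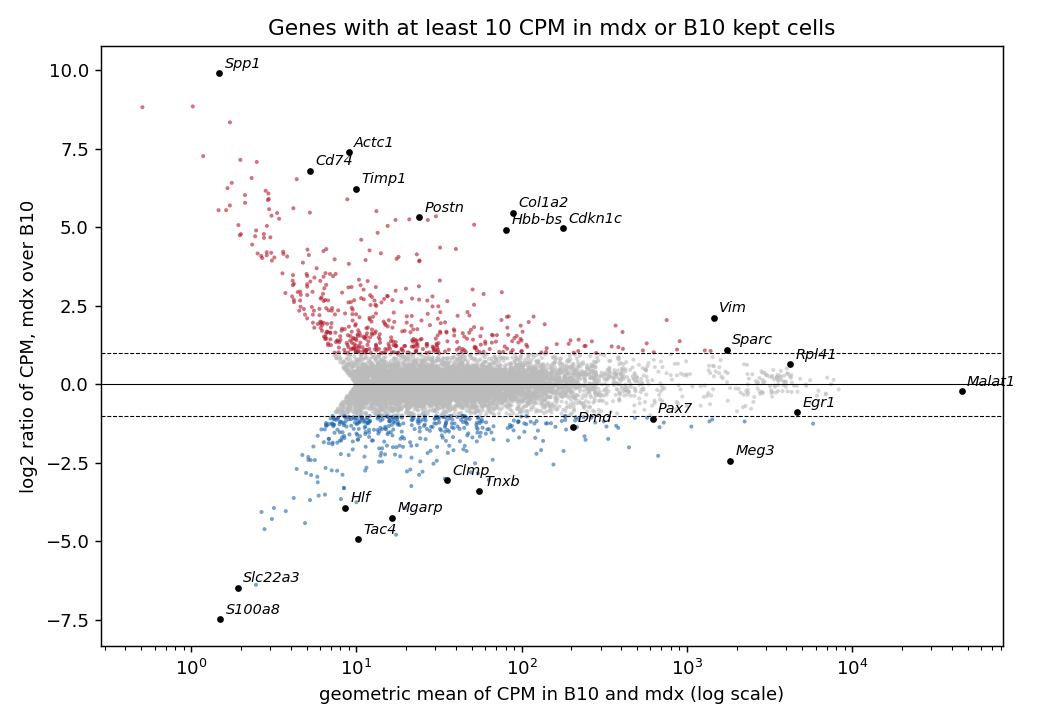
Log2 ratio of CPM, *mdx* over B10 (vertical axis), against the geometric mean of the 2 CPM values (horizontal axis, log scale), with 1 point for each gene of at least 10 CPM in a library. Red points are at least 2-fold higher in *mdx* (481 genes in all), blue points at least 2-fold lower (403), dashed lines mark 2-fold, labelled genes are black, and the gene with 0 UMIs in B10 and the gene with 0 in *mdx* are left out.

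Over 12 myogenic markers that the rule did not use, including *Cdh15* (M-cadherin), *Vcam1*, *Itga7* and *Chodl*, none differed 2-fold and the median log2 ratio was -0.16. Both libraries thus carried these 12 markers within 2-fold of each other. *Itga7* and *Vcam1* encode the antigens on which both were sorted. Of 25 satellite cell surface and quiescence genes described below, 5 were 2-fold lower in *mdx* and 1 was higher. *Cdh15* was at 206 CPM in B10 and 300.3 CPM in *mdx*, against 4.52 and 11.9 CPM in the cells without selection genes. *Chodl*, a surface lectin of quiescent satellite cells, was at 1451 and 1103 CPM, against 37.0 and 58.0 CPM. Markers of other cell types were not absent. At least 2 UMIs over 35 such markers (erythrocyte, white blood cell, endothelial, glial, smooth muscle, pericyte and fibroblast genes, a list chosen after seeing the data) were found in 4.79% of kept B10 cells and 17.6% of kept *mdx* cells, against 98.3% and 93.1% of the cells without selection genes. Their part in the ratios of other genes was not tested beyond leaving those cells out. Ratios and counts without those cells are given for some genes and groups only.

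Among the selection genes, *Pax7* was lower in *mdx*, at 906 CPM in B10 (897 to 915) and 424 in *mdx* (417 to 429.6). *Myf5* was nearly level, with 471 and 411 CPM, and *Myod1* was at 105 and 144 CPM. *Myog*, the factor that starts terminal differentiation, was at 8.84 CPM in B10 (7.97 to 9.79) and 300.3 in *mdx* (295 to 305), a log2 ratio of 5.09 (4.94 to 5.24). In B10, 90.1% of *Myog* UMIs lay in 5 cells. These genes chose the cells, so their ratios are a description only.

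Cells were also grouped by what they transcribed. Of the kept cells, 4340 in B10 (94.1%) and 3896 in *mdx* (76.8%) had a *Pax7* UMI and no UMI of *Myog* or of the proliferation genes *Mki67* and *Top2a*, and they are called *Pax7*-only cells here. Cells with a *Myog* UMI and neither proliferation gene numbered 28 in B10 and 401 in *mdx*. Cells with a proliferation UMI and no *Myog* UMI numbered 213 and 433. Depth differed between these classes. The *Myog* cells had a median of 11184 UMIs in *mdx* and the *Pax7*-only cells 6910, so a single UMI is found more readily in the former.

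Of 25 satellite cell surface and quiescence genes, 1 was at least 2-fold higher and 5 at least 2-fold lower in *mdx*, with a median log2 ratio of -0.39. In *Pax7*-only cells the median was -0.32 and 4 were lower. *Chrdl2*, a secreted BMP-binding protein, had the lowest ratio of the group, at 373 CPM in B10 (368 to 379) and 86.0 in *mdx* (83.3 to 88.7). Its UMIs were found in 55.8% of thinned B10 cells and 21.7% of thinned *mdx* cells (77.8% and 34.5% unthinned), against 3.67% and 1.78% in cells without selection genes. *Cd34*, a sialomucin that marks quiescent satellite cells, was at 209 and 75.3 CPM, a log2 ratio of -1.47 (-1.53 to -1.41). *Gas1*, a membrane protein named for growth arrest, was at 2092 and 967 CPM. The chemokine receptor *Cxcr4* had a log2 ratio of -1.10 (-1.19 to -1.02) and the transcription factor *Pax3* of -1.18 (-1.34 to -1.03). These 5 were lower in *mdx*. *Vcam1*, one of the sort antigens, was higher within 2-fold, at 388 and 565 CPM. *Calcr*, the calcitonin receptor that holds satellite cells in quiescence, was lower within 2-fold, at 91.5 and 54.1 CPM. *Fbxo32*, a ubiquitin ligase of muscle atrophy, was the one gene of the group past 2-fold upwards, at 13.4 and 35.4 CPM.

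Notch signalling keeps satellite cells quiescent, through receptors on the cell and ligands on its neighbours. Of 13 compared genes of this pathway, out of 19 listed, none was 2-fold higher and 2 were 2-fold lower, with a median of -0.26. The receptors *Notch1* (151 and 86.4 CPM in B10 and *mdx*) and *Notch3* (333 and 202 CPM) and the target genes *Heyl* (335 and 184 CPM) and *Hes1* (429 and 297 CPM) were all lower in *mdx* but within 2-fold. *Numb*, a Notch inhibitor that is shared unequally between daughter cells, passed 2-fold, at 56.0 CPM in B10 (53.8 to 58.3) and 25.9 in *mdx* (24.4 to 27.4). *Maml2*, a coactivator, had a log2 ratio of -1.06 (-1.29 to -0.83). In *Pax7*-only cells none of the 13 Notch genes was 2-fold lower. Among 10 cell polarity genes, *Numb* and *Prkci*, an atypical protein kinase C, were 2-fold lower over all kept cells, the latter at 27.7 and 11.6 CPM. In *Pax7*-only cells 1 of the 10 was 2-fold lower. The others, with *Pard3*, *Scrib*, *Vangl2* and *Mark2* among them, lay within 2-fold.

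The dystrophin-glycoprotein complex was represented by 13 genes, of which only *Dmd* passed 2-fold, and the median was -0.25. *Utrn*, the dystrophin homologue, was lower in *mdx*, at 216 CPM in B10 (211 to 220.1) and 133 in *mdx* (129 to 136). *Sgca* (α-sarcoglycan) had a log2 ratio of -0.89 and was within 2-fold. *Dag1*, dystroglycan itself, was at 1518 and 1365 CPM. *Sntb2*, a syntrophin, and *Lama2*, the laminin chain that dystroglycan binds, were slightly higher in *mdx*, with ratios of 0.40 and 0.24.

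Muscle structural genes were higher in *mdx*. Of the 26 listed sarcomere genes 17 reached 10 CPM, and 13 of these were at least 2-fold higher and none was 2-fold lower, with a median log2 ratio of 1.66. Several are under 10 CPM in B10 and were compared because of their level in *mdx*, so the count describes these 17 genes and lends no support to a direction. *Actc1*, the actin of embryonic and newly formed muscle (ENSMUSG00000068614; chr2:114047282-114053548, minus strand), had the largest ratio of the genes that reached 50 CPM in either library. It was counted 29 times in B10, 0.690 CPM (0.462 to 0.9902), and 5185 times in *mdx*, 117 CPM (114 to 119.9). The log2 ratio of *Actc1* was 7.40 (6.88 to 7.98). The troponins *Tnnt2* and *Tnni1* of developing muscle had ratios of 6.54 (5.89 to 7.27) and 4.90 (4.25 to 5.65). *Acta1*, the adult skeletal actin, was at 10.2 and 46.0 CPM, and the myosin light chain *Mylpf* at 5.09 and 32.5 CPM. *Des*, the intermediate filament of muscle cells from the satellite cell onward, was at 521 and 544 CPM and did not follow them. *Acta1* and *Mylpf* are also among 10 listed adult fibre transcripts, of which 5 of 6 compared were 2-fold higher and none lower. The 10 summed to 91.2 and 208 CPM, against 37.9 and 71.8 CPM in the cells without selection genes. A UMI of any of the 10 was in 19.7% and 24.6% of thinned kept cells, against 11.0% and 14.3%. Their source was not tested. 

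The *Actc1* signal lay in few cells. It had a UMI in 0.109% of thinned B10 cells and 2.76% of thinned *mdx* cells (0.260% and 5.26% unthinned), against 2.75% and 1.70% in the cells without selection genes, which are too near the kept shares for these to be read as expression in many cells. In *mdx*, the *Myog* cells held it at 965 CPM and the *Pax7*-only cells at 3.92 CPM, and within *Pax7*-only cells its ratio to B10 was 2.45. *Ttn*, the giant spring protein of the sarcomere, was spread differently. It was at 4.73 CPM in B10 (4.10 to 5.44) and 194 in *mdx* (189 to 198), where *Pax7*-only cells held 118 CPM and *Myog* cells 688 CPM. In *Pax7*-only cells its ratio was 4.72, and a UMI was found in 1.38% of all thinned B10 cells and 18.01% of thinned *mdx* cells (3.08% and 31.0% unthinned), against 0.917% and 3.17% in the cells without selection genes. *Cacng1*, a subunit of the calcium channel of muscle fibres, was at 161 CPM in *Myog* cells of *mdx* and 75.8 CPM in the *Pax7*-only cells. Over all kept cells it was at 2.69 CPM in B10 and 88.8 CPM in *mdx*, and its ratio was 4.83 in *Pax7*-only cells. Within those cells 9 of the 17 sarcomere genes were 2-fold higher, with a median of 1.02.

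Promoters of sarcomere genes past 2-fold are shown because myogenic factors such as *Myod1* and *Myog* bind E-boxes, of which CAGCTG is a frequent form. RefSeq starts on GRCm38.p6, the build of mm10, were given for 14 of the 17 genes, as 16 promoters. CAGCTG, which reads the same on both strands, was found in the 250 bases before the start of 8 of these 14 genes. It was in 9 of their 16 promoters and in 13% of all 32851 promoters. *Des* and *Mybpc1*, both within 2-fold, are among the 8, and each promoter printed here holds a match. The sequences run 5′ to 3′ toward the start on the gene's own strand, with CAGCTG in capitals. A match is a description of the letters and not a site. For *Tnnt2* (chr1:135836084-135836333, plus strand) and *Tnni1* (chr1:135799171-135799420, plus strand) 1 of 2 listed promoters is printed, and *Mylpf* lies at chr7:127211358-127211607, plus strand.
Tnnt2: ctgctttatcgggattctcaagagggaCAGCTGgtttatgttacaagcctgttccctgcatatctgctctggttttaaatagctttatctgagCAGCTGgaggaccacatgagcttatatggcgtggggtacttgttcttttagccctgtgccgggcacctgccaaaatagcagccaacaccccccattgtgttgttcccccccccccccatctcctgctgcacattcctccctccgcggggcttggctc
Tnni1: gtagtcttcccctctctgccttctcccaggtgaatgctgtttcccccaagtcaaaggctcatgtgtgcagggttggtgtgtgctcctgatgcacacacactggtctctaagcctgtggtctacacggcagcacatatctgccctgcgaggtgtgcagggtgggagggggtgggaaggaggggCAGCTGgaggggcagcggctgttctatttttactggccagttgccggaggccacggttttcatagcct
Mylpf: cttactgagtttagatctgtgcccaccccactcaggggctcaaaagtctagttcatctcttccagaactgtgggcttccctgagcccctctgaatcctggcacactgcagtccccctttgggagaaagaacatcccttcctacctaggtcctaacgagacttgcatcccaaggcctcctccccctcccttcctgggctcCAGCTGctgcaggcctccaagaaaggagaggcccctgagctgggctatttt

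Of 18 listed fusion genes 10 were compared, 4 of them were at least 2-fold higher and none was 2-fold lower, with a median of 0.77. *Tmem8c* and *Gm7325* encode myomaker and myomixer, the membrane proteins that drive myoblast fusion. *Tmem8c* was at 0.785 CPM in B10 (0.540 to 1.10) and 34.8 in *mdx* (33.1 to 36.6), a log2 ratio of 5.47 (4.98 to 6.02). *Gm7325* was counted 2 times in B10 and at 22.0 CPM in *mdx*, a ratio of 8.85 with a wide counting interval (6.996 to 11.90). *Cdh2* (N-cadherin) was at 6.13 and 48.6 CPM and *Myof* (myoferlin), a membrane repair and fusion protein, at 10.6 and 67.7 CPM. Both held their ratios in *Pax7*-only cells, 3.04 and 2.59. *Tmem8c*, *Gm7325* and *Cdh2* were under 10 CPM in B10 and were compared because of their level in *mdx*, so the count of 4 is a description. CAGCTG was in none of the promoters of the 4 fusion genes that had one listed.

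Among 18 myogenic transcription factors and their regulators, 3 were at least 2-fold higher and 1 was 2-fold lower in *mdx*, with a median of 0.35. *Mef2c*, a partner of the myogenic factors in differentiation, was at 2.19 CPM in B10 and 19.7 CPM in *mdx*. It was compared because of its level in *mdx*. *Six4*, a homeobox factor, had a ratio of 1.07 (0.92 to 1.21). *Id3*, which blocks DNA binding by myogenic factors, was at 960.4 and 2012 CPM, and at 812 and 847 CPM in the cells without selection genes. *Eya4*, a coactivator of homeobox factors, was the one lower gene, with 20.9 and 9.38 CPM. *Mef2d* stayed within 2-fold, at 45.1 and 29.2 CPM.

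Inhibitors of cyclin-dependent kinases (CDKs), which stop the cell cycle, form a small group. Of 7 genes 4 were at least 2-fold higher in *mdx* and none was 2-fold lower, with a median of 2.17. *Cdkn2a* and *Cdkn2b* were under 10 CPM in B10 and were compared because of their level in *mdx*. The count of 4 is therefore a description. *Cdkn2a* (ENSMUSG00000044303; chr4:89274471-89294653, minus strand), whose locus encodes p16 and p19 and is used as a marker of senescence, was counted 48 times in B10, 1.14 CPM (0.841 to 1.51), and 3019 times in *mdx*, 67.9 CPM (65.5 to 70.4). Its log2 ratio was 5.90 (5.48 to 6.34) over all kept cells and 6.04 in *Pax7*-only cells. In *mdx* it was at 67.6 CPM in *Pax7*-only cells, 60.5 CPM in *Myog* cells and 83.7 CPM in cells with a proliferation gene, so its level was similar in the 3 classes. A UMI was found in 0.284% of thinned B10 cells and 14.5% of thinned *mdx* cells (0.802% and 29.2% unthinned), against 0.917% and 1.70% in the cells without selection genes.

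*Cdkn1c* (ENSMUSG00000037664; chr7:143458339-143461050, minus strand), the imprinted gene of p57, was at 31.5 CPM in B10 (29.8 to 33.2) and 992 in *mdx* (982 to 1001). Its level was higher in differentiating cells, with 4854 CPM in the *Myog* cells of *mdx* and 493 CPM in the *Pax7*-only cells. In the latter its ratio to B10 was still 4.55. *Cdkn1a* (p21), a p53 target, was at 39.4 and 177 CPM, with a ratio of 2.13 in *Pax7*-only cells. *Cdkn2b* (p15) was at 1.59 and 12.2 CPM. *Cdkn1b* (p27) and *Cdkn2c* (p18) had ratios of -0.05 and -0.41, so the group split into 4 genes far apart between the strains and 3 that were not.

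Mitosis genes were also higher in *mdx*. Of 25 listed genes 8 reached 10 CPM, each of them at least 2-fold higher, with a median log2 ratio of 3.29. These genes are nearly silent in B10 and passed that minimum only through *mdx*, so their shared direction follows from the minimum and is a description. *Ube2c*, a ubiquitin-conjugating enzyme of the anaphase-promoting complex, was at 0.499 CPM in B10 (0.309 to 0.763) and 16.5 in *mdx* (15.3 to 17.8). *Birc5* (survivin) had a ratio of 4.67 (4.07 to 5.34), the cyclin *Ccnb2* of 4.04 (3.54 to 4.60), and the topoisomerase *Top2a* of 2.69 (2.39 to 2.995). *Mki67*, a chromosome surface protein of dividing cells, had the smallest ratio of the 8, at 6.59 and 20.4 CPM.

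Cells with a proliferation gene were both more frequent and richer in mitosis transcripts in *mdx*. The cells with a *Mki67* or *Top2a* UMI and no *Myog* UMI held the 25 listed mitosis genes at 267 CPM together in B10 and 1352 CPM in *mdx*, at similar median depths of 10301 and 10439 UMIs. *Mki67* and *Top2a*, which chose these cells, are among them. Replication genes differed less. Of 12 compared genes 2 were 2-fold higher, *2810417H13Rik*, the PCNA-associated factor, with a ratio of 3.40 and the nucleotide-making enzyme *Rrm2* with 2.38, and the median was 0.40. *Pcna* itself was lower in *mdx*, at 35.5 and 22.6 CPM. Among 12 G1 cyclins and kinases *Cdk6* and *Ccnd2* were 2-fold higher, at 10.9 and 76.2 CPM and at 2.52 and 15.9 CPM, whereas *Ccnd1* was at 267 and 184 CPM. *Ccnd2* was at 432 CPM in the *mdx* cells without selection genes, and its ratio went from 2.66 to 3.07 when cells with markers of other types were left out. It was under 10 CPM in B10 and was compared because of its level in *mdx*.

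Promoters of mitosis genes are shown because they are known for CCAAT boxes and for cell-cycle elements close to the start. CCAAT, or ATTGG on the other strand, was found in the 250 bases before the start of 7 of the 8 genes. It was in 8 of their 9 promoters and in 33.8% of all 32851 promoters. TTTGAA, or TTCAAA on the other strand, was found in 5 of the 8 genes, in 5 of the 9 promoters and in 16% of all promoters. TTCGAA, which reads the same on both strands, was found in *Top2a* alone among the 8 and in 1.34% of all promoters. Matches are in capitals, and in *Ube2c* the run CCAATTGG holds a pair of overlapping matches on opposite strands. *Ube2c* lies at chr2:164769679-164769928 on the plus strand, *Ccnb2* at chr9:70421555-70421804 on the minus strand and *Top2a* at chr11:99024190-99024439 on the minus strand, from RefSeq on GRCm38.p6.
Ube2c: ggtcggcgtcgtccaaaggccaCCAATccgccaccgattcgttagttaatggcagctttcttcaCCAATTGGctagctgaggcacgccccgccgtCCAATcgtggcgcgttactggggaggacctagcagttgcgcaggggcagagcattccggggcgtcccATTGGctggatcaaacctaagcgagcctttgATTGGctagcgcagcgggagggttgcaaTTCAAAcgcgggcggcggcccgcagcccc
Ccnb2: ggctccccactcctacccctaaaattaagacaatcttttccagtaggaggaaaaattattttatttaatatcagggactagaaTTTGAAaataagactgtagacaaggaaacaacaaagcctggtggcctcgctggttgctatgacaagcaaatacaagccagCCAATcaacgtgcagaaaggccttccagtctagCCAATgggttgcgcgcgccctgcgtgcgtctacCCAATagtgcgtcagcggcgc
Top2a: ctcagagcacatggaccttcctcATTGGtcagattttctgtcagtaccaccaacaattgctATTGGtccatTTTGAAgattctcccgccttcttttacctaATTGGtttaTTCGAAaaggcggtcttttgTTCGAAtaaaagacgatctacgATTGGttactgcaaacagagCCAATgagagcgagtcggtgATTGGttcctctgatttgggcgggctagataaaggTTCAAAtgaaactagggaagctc

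Of 13 p53 target genes 3 were at least 2-fold higher, none was lower, and the median was 0.45. Besides *Cdkn1a* these were *Bbc3*, the cell death activator PUMA, at 4.61 and 15.6 CPM and *Phlda3*, an inhibitor of AKT, at 60.1 and 152 CPM. *Trp53* was at 113 and 87.7 CPM. Of 23 apoptosis regulators 5 were higher and none was lower, with a median of 0.22. *Bbc3*, which is in both lists, was under 10 CPM in B10 and was compared because of its level in *mdx*. Both counts are therefore a description. *Bcl2l11* (BIM), a cell death activator like PUMA, was at 14.8 and 39.9 CPM, and the caspases *Casp6* and *Casp8* had ratios of 1.33 and 1.71. *Bcl2* and *Mcl1*, which protect from death, had ratios of -0.37 and 0.04. None of 26 autophagy and lysosome genes passed 2-fold in either direction.

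**Figure D2:**
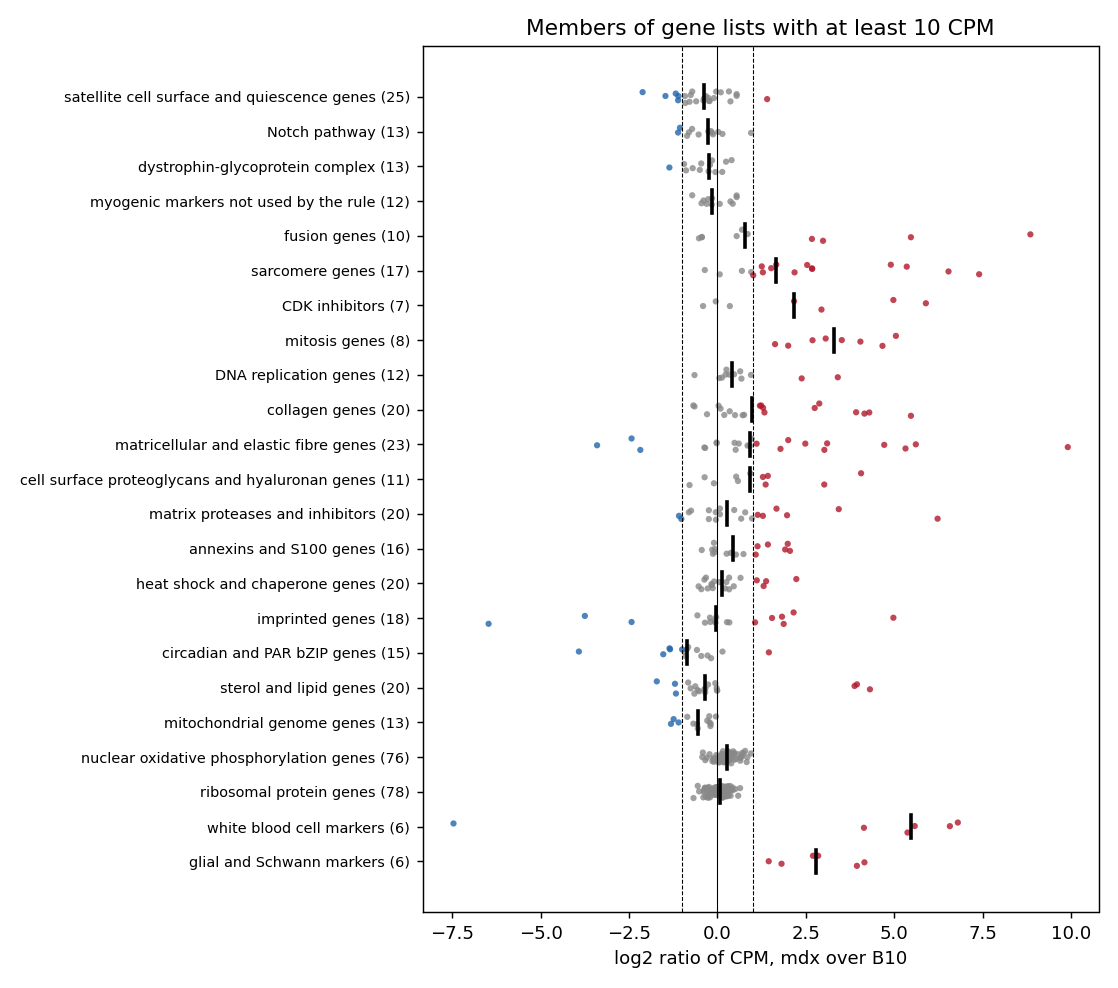
Log2 ratio of CPM, *mdx* over B10 (horizontal axis), of the members of selected gene lists that reached 10 CPM in a library, with the number compared in parentheses. Each point is a gene, red or blue when at least 2-fold higher or lower in *mdx*, short black bars are list medians, and the sarcomere genes, mitosis genes and CDK inhibitors lie mostly to the right of 0, with medians of 1.66, 3.29 and 2.17.

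Extracellular matrix genes differed selectively. Of 31 listed collagen genes 20 were compared, of which 10 were at least 2-fold higher and none was 2-fold lower, with a median of 0.98. Without cells that carried markers of other cell types, 10 were 2-fold higher and 1 was 2-fold lower. *Col1a2* (ENSMUSG00000029661; chr6:4504814-4541544, plus strand), a chain of the fibrillar collagen of scar and tendon, was at 13.3 CPM in B10 (12.2 to 14.4) and 589 in *mdx* (582 to 596). A UMI was seen in 2.80% of thinned B10 cells and 52.9% of thinned *mdx* cells (6.48% and 68.7% unthinned). The thinned share was 75.2% and 59.2% in the cells without selection genes, so neither share of kept cells is above it, and no expression is read from them. *Col1a1*, the partner chain, was at 21.7 and 159.6 CPM, and *Col8a1* at 6.16 and 93.3 CPM. Collagens already abundant in B10 differed less, with *Col3a1* at 816 and 1036 CPM and *Col6a1* at 180.5 and 192 CPM. *Col8a1* was under 10 CPM in B10 and was compared because of its level in *mdx*. The count of 10 and the contrast with abundant collagens are therefore a description. *Col15a1* and *Col19a1* were lower within 2-fold.

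The cells without selection genes carry matrix genes as well, with *Col1a2* at 631 CPM in B10 and 682 CPM in *mdx*, so they are not cells that lack the gene. Their part in the ratio was not tested beyond leaving out cells. Without the cells that carried markers of other cell types, the *Col1a2* ratio was 5.81, against 5.47 over all kept cells, and in *Pax7*-only cells it was 5.46.

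Matricellular genes, whose products sit in the matrix and signal to cells, went both ways. Of 23 compared genes 10 were higher and 3 lower, with a median of 0.91. Higher genes such as *Spp1* and *Postn* reached 10 CPM only in *mdx*, so the count of 10 is a description. *Spp1* (osteopontin; ENSMUSG00000029304; chr5:104435118-104441050, plus strand) was counted 2 times in B10 and 2034 times in *mdx*, 45.8 CPM (43.8 to 47.8), which gives a log2 ratio of 9.91 (8.06 to 12.96). It was found in 3.15% of thinned *mdx* cells (6.46% unthinned), below the 8.04% of *mdx* cells without selection genes, so that share is not read as expression. *Postn* (periostin) was at 3.78 CPM in B10 (3.22 to 4.42) and 151 in *mdx* (147 to 155), and in B10 54.1% of its UMIs lay in 5 cells. The *Postn* ratio was 5.32, but 7.70 without cells that carried markers of other types, 4.24 in cells with at least 1 selection UMI and 4.15 with at least 500 genes and no upper limit, so its size rests on which cells were kept. *Tnc* (tenascin C) and *Thbs1* (thrombospondin) had ratios of 5.61 (5.04 to 6.24) and 3.10 (2.84 to 3.37). *Sparc*, already abundant, was at 1186 and 2553 CPM, one of the 5 largest gains in CPM. The lower genes were *Tnxb* (tenascin X), *Thbs2* and the collagen cross-linker *Loxl2*. *Tnxb* was at 179 CPM in B10 (175 to 184) and 16.9 in *mdx* (15.7 to 18.2), in 41.0% and 6.13% of thinned cells (70.7% and 10.7% unthinned). In the cells without selection genes the thinned shares of *Tnxb* were 31.2% and 16.01%, so the *mdx* share is not above that background. *Thbs2* was at 71.1 and 13.2 CPM.

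Surface proteoglycans and hyaluronan genes were higher in 5 of 11 cases and lower in none. They were *Gpc3* (4.40 and 73.5 CPM), *Vcan* (3.88 and 31.5 CPM), the hyaluronan receptor *Cd44* (31.0 and 83.1 CPM), *Gpc1* and *Sdc1*. *Gpc3* and *Vcan* passed the minimum of 10 CPM only through *mdx*, so the count of 5 is a description. Of 20 matrix proteases and their inhibitors 6 were higher and 2 lower. *Timp1* (ENSMUSG00000001131; chrX:20870166-20874735, plus strand), an inhibitor of metalloproteinases, was counted 48 times in B10, 1.14 CPM (0.841 to 1.51), and 3800 times in *mdx*, 85.5 CPM (82.8 to 88.3), a ratio of 6.23 (5.82 to 6.67) that was 6.04 in *Pax7*-only cells without markers of other types. Its relative *Timp3* was lower, at 261 and 129 CPM. *Timp1* passed the minimum of 10 CPM only through *mdx*, so the count of 6 higher proteases and inhibitors is a description. *Serpinh1*, the collagen chaperone HSP47, was at 229 and 726 CPM. Of 11 laminin and basement membrane genes *Lamb1* was 2-fold higher, at 12.4 and 58.9 CPM, and *Lama3* and *Lamc3* were 2-fold lower, the latter at 21.8 and 1.91 CPM. Of 7 integrins, *Itga1*, a collagen receptor, and *Itgb8*, an activator of TGF-β, were higher, with ratios of 2.68 and 1.10. Only 1 of the 7 was 2-fold higher without cells that carried markers of other types.

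Annexins and S100 proteins bind calcium at membranes, and several take part in membrane repair. Of 16 genes 6 were at least 2-fold higher and none was lower, with a median of 0.45. *S100a6* was at 370.2 CPM in B10 and 1534 CPM in *mdx*, *S100a4* at 55.3 and 219, *Anxa1* at 70.9 and 267 and *Anxa2* at 276 and 606. *Anxa6*, also a repair protein, was at 204 and 187 CPM. *Vim* (vimentin), the intermediate filament of activated and mesenchymal cells, was at 694 CPM in B10 (687 to 702) and 3029 in *mdx* (3013 to 3046), the largest gain in CPM among all genes. It was at 2279 and 3616 CPM in the cells without selection genes, above the kept cells of both strains.

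**Figure D3:**
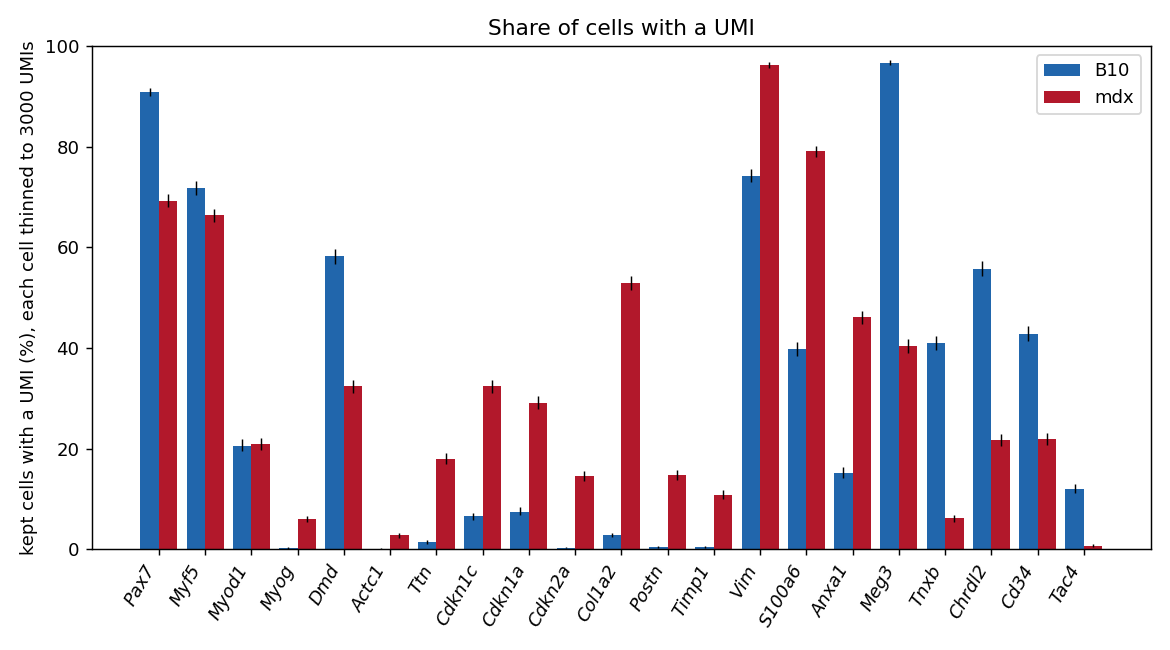
Share of kept cells with at least 1 UMI of a gene (vertical axis, percent), with every cell thinned to 3000 UMIs, for selected genes in B10 (blue, 4576 cells) and *mdx* (red, 5075 cells). Error bars are exact 95% binomial intervals over cells, and among the genes drawn the strains differ most for *Meg3* (96.7% and 40.3%) and *Col1a2* (2.80% and 52.9%).

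Imprinted genes, which are expressed from 1 parental allele and include regulators of fetal growth, went both ways. Of 18 compared genes 6 were at least 2-fold higher, 3 were 2-fold lower, and the median was -0.05. Besides *Cdkn1c*, the higher genes were *Plagl1* (38.6 and 172 CPM), *Igf2* (51.5 and 189 CPM), *H19* (27.3 and 96.9 CPM), *Peg10* and *Mest*. *Meg3* (ENSMUSG00000021268; chr12:109541001-109571726, plus strand), a long non-coding RNA of the *Dlk1*-*Meg3* locus, had one of the 5 largest losses in CPM. It was at 4229 CPM in B10 (4209 to 4249) and 784 in *mdx* (776 to 793), and it was found in 96.7% of thinned B10 cells and 40.3% of thinned *mdx* cells (98.2% and 48.8% unthinned). In the cells without selection genes those shares were 68.8% and 41.8%, so the *mdx* share lay at the level of other cells. *Mirg*, a transcript of the same locus, was at 36.7 and 2.72 CPM. *Slc22a3*, an organic cation transporter, was counted 758 times in B10, 18.02 CPM, and 9 times in *mdx*, a ratio of -6.48 (-7.61 to -5.54). *Peg3*, used as a satellite cell marker, was at 1298 and 1265 CPM.

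Growth factor pathways contained members in both directions. Of 11 IGF pathway genes 4 were higher and 2 lower. *Igf1*, a growth signal for muscle, was at 175 CPM in B10 (171 to 179) and 61.5 in *mdx* (59.2 to 63.9), opposite in direction to *Igf2*. The IGF-binding proteins *Igfbp3* (2.73 and 52.7 CPM) and *Igfbp5* (1093 and 426 CPM) also differed in direction. Of 25 TGF-β and BMP genes 3 were higher and 2 lower. The ligand *Tgfb1* was at 5.54 and 31.3 CPM, a ratio of 2.50 (2.30 to 2.71), whereas the co-receptor *Tgfbr3* (346 and 135 CPM) and the latency protein *Ltbp4* (305 and 113 CPM) were lower. The receptors *Tgfbr1* and *Tgfbr2* stayed within 2-fold. Among 13 genes of the FGF, HGF and EGF receptor pathways 3 were higher and 1 was lower. The feedback phosphatase *Dusp6* was at 8.16 and 29.4 CPM and the ligand *Hbegf* at 11.4 and 26.6 CPM, whereas the receptor *Fgfr1* was at 520.1 and 274 CPM, within 2-fold, and the signalling inhibitor *Spred2* at 62.1 and 31.0 CPM. Of 9 Wnt pathway genes only *Lgr4*, a receptor of R-spondins, passed 2-fold, at 17.98 and 7.13 CPM. *Igfbp3*, *Tgfb1* and *Dusp6* were under 10 CPM in B10 and were compared because of their level in *mdx*. The counts of higher genes in their groups are therefore a description.

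Several clock genes were lower in *mdx*. Of 15 circadian and PAR bZIP genes 5 were at least 2-fold lower, 1 was higher, and the median was -0.87. *Hlf*, a PAR bZIP factor, was at 33.4 CPM in B10 (31.7 to 35.2) and 2.20 in *mdx* (1.79 to 2.69), and its relative *Dbp*, a clock output gene, at 91.8 and 31.7 CPM. *Nr1d1* (REV-ERBα), a repressor in the clock, was at 137 and 53.4 CPM. *Nfil3*, which competes with *Dbp* and *Hlf* for the same sites, was the one higher gene, at 28.2 and 77.3 CPM. The activators *Arntl* and *Clock* had ratios of 0.14 and -0.28. The hour at which the mice were taken is not given in the sources used here, and its part in these values was not tested. CACGTG, the E-box of clock factors, was found in the 250 bases before the start of 3 of 14 of these genes (*Bhlhe41*, *Per1* and *Tef*). It was in 4 of their 19 promoters and in 6.02% of all promoters.

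Immediate-early genes respond within minutes to stress, including tissue dissociation, and most were within 2-fold between the libraries. Of 11 AP-1 genes 1 was higher and 1 lower, and of 23 other immediate-early genes 1 was higher and 2 were lower, with medians of -0.26 and -0.33. *Fos* was at 8744 and 7838 CPM, *Jun* at 7718 and 6197 CPM, *Fosb* at 3360.2 and 1484 CPM and *Egr1* at 6306 and 3432 CPM. *Fosl1*, an AP-1 member induced later, stood apart with a ratio of 4.75 (4.03 to 5.57), at 10.2 CPM in *mdx*. It passed the minimum of 10 CPM only through *mdx*, so its direction is a description. Several chaperones of the endoplasmic reticulum were higher in *mdx*, with *Hspa5* (BiP) at 592 and 1279.6 CPM and *Hsp90b1* at 363 and 897 CPM. *Sdf2l1*, at 7.73 and 31.9 CPM, was compared because of its level in *mdx*. Of 12 unfolded protein and integrated stress genes 4 were 2-fold higher, with a median of 0.61, but without cells that carried markers of other types only 1 passed 2-fold, at a median of 0.60. The cytosolic chaperones *Hspa1a* and *Dnajb1* were within 2-fold, and *Hspb1* was at 561 and 1456 CPM.

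Groups of metabolic genes differed in how many members passed 2-fold. Of 20 sterol and lipid genes 3 were higher and 3 lower, with a median of -0.36. The fatty acid carriers *Fabp4* and *Fabp5* were at 8.96 and 178 CPM and at 6.13 and 94.5 CPM. The *Fabp4* ratio was 4.31 over all kept cells and 2.90 without cells that carried markers of other types. *Fabp4* and *Fabp5* passed the minimum of 10 CPM only through *mdx*, so the count of 3 higher genes is a description. *Scd1*, *Lpl* and *Apoe* were lower, the last at 2055 and 909.9 CPM. The sterol synthesis genes *Idi1* and *Sqle* were lower within 2-fold. Of 15 glycolysis enzymes *Hk2* (6.92 and 57.4 CPM) and *Eno3* were 2-fold higher, with a median of 0.66. *Hk2* passed the minimum of 10 CPM only through *mdx*. Of 13 genes of the mitochondrial genome *mt-Atp8*, *mt-Nd3* and *mt-Nd6* were 2-fold lower, with a median of -0.56. The rule limited the share of mitochondrial UMIs in a cell, so these values are a description only. The 76 compared nuclear genes of oxidative phosphorylation and the 78 of ribosomal proteins contained none past 2-fold, with medians of 0.26 and 0.07. Of 24 antioxidant and metallothionein genes 3 were 2-fold lower, *Gpx3* (1691 and 667 CPM), *Gstm1* (609 and 183 CPM) and *Gsta4*. *Gpx1* was the 1 gene of that group 2-fold higher.

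Calcium handling and excitation genes went both ways, with 3 of 15 compared genes higher and 4 lower. *Cacng1*, *Jph2* (junctophilin, which joins the surface membrane to the calcium store; 2.31 and 17.1 CPM) and the release channel *Ryr1* (9.11 and 19.3 CPM) were higher in *mdx*. *Ryr3* (97.0 and 12.1 CPM), *Jph1* (54.0 and 19.6 CPM), *Sln*, a brake on the calcium pump, and *Itpr2* were lower. *Cacng1*, *Jph2* and *Ryr1* were under 10 CPM in B10 and were compared because of their level in *mdx*. The count of 3 and the opposite directions of the release channel and junctophilin isoforms are therefore a description. In *Pax7*-only cells 2 of the 15 genes were 2-fold higher and 5 were 2-fold lower. None of 5 acetylcholine receptor and synapse genes passed 2-fold, with *Chrna1* at 108 and 146 CPM and *Rapsn*, its anchor, at 115 and 114 CPM. Of 11 cadherins and adhesion molecules *Cdh2* and *Cadm1* (3.14 and 15.97 CPM) were higher and *Cdh4* (20.2 and 1.73 CPM) was lower. *Cdh2* and *Cadm1* were under 10 CPM in B10 and were compared because of their level in *mdx*, so their count is a description. Without cells that carried markers of other types, 1 of the 11 was 2-fold higher and 3 were 2-fold lower.

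Among genes that reached 50 CPM in either library, the 15 lowest ratios ran from -4.92 to -2.71. *Tac4* (hemokinin, a tachykinin peptide; ENSMUSG00000020872; chr11:95261529-95269265, plus strand) was at 56.5 CPM in B10 (54.3 to 58.8) and 1.87 in *mdx* (1.49 to 2.31), in 12.1% and 0.729% of thinned cells (24.7% and 1.32% unthinned). In the cells without selection genes it was at 0.903 and 0.100 CPM, so in B10 it was mainly in the myogenic cells. The unannotated transcript *Gm26834* was at 91.2 and 3.31 CPM. *Mgarp*, a mitochondrial protein, was at 71.1 and 3.76 CPM, and the chemokine *Ccl19* at 77.1 and 5.04 CPM. Calcium and membrane signalling genes were among them, with the calcium channel *Cacna1d* at 65.9 and 6.997 CPM, *Ryr3* and the potassium channel *Kcnma1* at a ratio of -2.77. The adhesion molecule *Clmp* was at 101 and 12.2 CPM. *Tnxb*, *Elovl4*, *Ttyh1*, *Pgm5*, *Angptl1* and *Svep1* were also among them, the last a large adhesion protein of the matrix. In *Pax7*-only cells *Tac4* had a ratio of -4.63, *Ryr3* of -2.90 and *Clmp* of -2.99, near those over all kept cells.

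The 15 highest ratios were those of *Actc1*, *Cd74*, *Timp1*, *Cdkn2a*, 4 haemoglobin genes, *Col1a2*, *Ttn*, *Postn*, *Dpysl3*, *Myog*, *Cacng1* and *Cdkn1c*. *Dpysl3*, a cytoskeletal protein known from growing axons, was at 2.81 CPM in B10 (2.32 to 3.36) and 106 in *mdx* (103 to 109), in 0.743% and 20.6% of thinned cells (1.65% and 40.5% unthinned), against 11.9% and 10.3% in the cells without selection genes. The 5 largest gains in CPM were those of *Vim*, *Rpl41*, *Rps20*, *Sparc* and *S100a6*, and the 5 largest losses those of *Malat1*, *Gm42418*, *Meg3*, *Egr1* and *mt-Atp6*. *Malat1*, *Rpl41*, *Rps20*, *Egr1* and *mt-Atp6* were within 2-fold. The last counts toward the mitochondrial share that the rule limited.

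**Figure D4:**
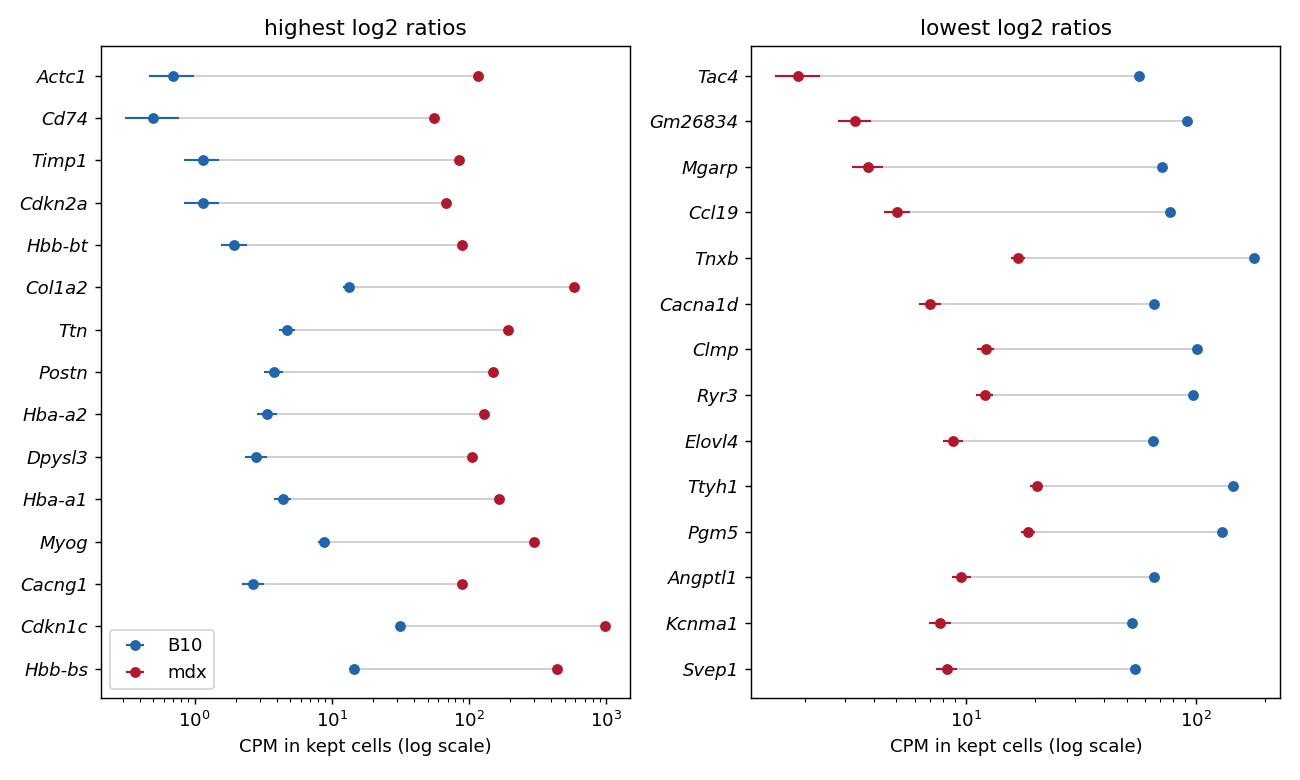
CPM in the kept cells of B10 (blue) and *mdx* (red) on a log scale, for the 15 highest and 14 of the 15 lowest log2 ratios among genes that reached 50 CPM in either library. Bars are exact 95% Poisson intervals, mostly narrower than the points, and *Actc1* at the top of the left panel runs from 0.690 to 117 CPM.

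Some of these ratios came from very few cells. The 4 haemoglobin genes together had 36808 UMIs in *mdx*, of which 35668 lay in 4 cells with at least 20 each. The rest amounted to 25.6 CPM in *mdx*, against 24.3 CPM in B10, so outside those cells the strains were close. *Hba-a1* and *Hba-a2* are near-identical copies, and the split of reads between them is uncertain. Without cells that carried markers of other types, the log2 ratios of the 4 genes lay between -0.50 and 0.05. Erythrocyte genes are among those markers, so this follows at least in part from the removal. *Cd74*, the MHC class II invariant chain of antigen-presenting cells, was at 0.499 CPM in B10 and 55.6 CPM in *mdx*, with 46.8% of its *mdx* UMIs in 5 cells, and at 367 CPM in *mdx* cells without selection genes. In the other direction, *S100a8*, a neutrophil gene, had 838 UMIs in B10, of which 827 lay in 1 cell. Of the 481 higher genes 12 had over 50% of their *mdx* UMIs in 5 cells, and of the 403 lower genes 2 had over 50% of their B10 UMIs in 5 cells.

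Most compared markers of blood, glial and endothelial cells were higher in *mdx*. Several of them are under 10 CPM in B10 and were compared because of their level in *mdx*, so these counts are a description, and the sums run over all listed markers of a type, compared or not. White blood cell markers were higher in 5 of 6 cases, and the 8 listed summed to 27.5 CPM in B10 and 231 CPM in *mdx*, against 42.5 and 1534 CPM in the cells without selection genes. Glial and Schwann markers were higher in 6 of 6, the 8 listed summing to 34.9 and 177 CPM, and endothelial markers in 2 of 2, the 8 listed summing to 4.40 and 58.8 CPM. Pericyte markers were higher in 2 of 4 and lower in 1, the 7 listed summing to 156 and 180.3 CPM, and smooth muscle markers in 2 of 3, the 6 listed summing to 434 and 727 CPM. Among fibroblast and tenocyte markers, *Dpt* and *Scx* were lower and *Thbs4* higher in *mdx*. The 8 listed summed to 576 and 247 CPM, against 238 and 259 CPM in the cells without selection genes. A UMI of any of the 8 was found in 78.6% of thinned B10 cells and 49.0% of thinned *mdx* cells. In the cells without selection genes these shares were 20.2% and 11.8%, so the 8 are not read as marking another cell type here. Of all 50 markers of other cell types, *Rergl* in B10 was the one at 0 UMIs in kept cells.

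When the cells with at least 2 UMIs over the 35 markers were left out, 427 of the 481 higher genes and 377 of the 403 lower genes stayed past 2-fold, 10 of the higher genes had a ratio below 0, and none of the lower genes had one above 0. Within *Pax7*-only cells, 435 and 345 stayed past 2-fold. With both restrictions together, 393 and 344 did, and 12 of the higher genes had a ratio below 0. Counted anew without the marker-carrying cells, 368 genes were 2-fold higher and 406 lower, and with both restrictions 328 and 377. Leaving those cells out, alone or with the restriction to *Pax7*-only cells, was chosen after seeing the data. Under both restrictions *Actc1* had a ratio of 2.41, against 7.40 over all kept cells, and *Ttn* of 4.70, against 5.35. A ratio within *Pax7*-only cells does not give the part of a difference that lies in them. *Cdkn2a*, *Timp1*, *Col1a2* and *Dpysl3* kept ratios of 6.15, 6.04, 5.77 and 5.14.

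The D2-*mdx* and DBA libraries, made in the same way from D2.B10-Dmdmdx mice of 14 weeks, which carry the *mdx* allele on the DBA/2 background, and from DBA/2 mice of 13 weeks, share no sample with B10 or *mdx*. They held 4403 and 2857 kept cells. In that pair 538 of 8629 genes (6.23%) were at least 2-fold higher in D2-*mdx* and 434 (5.03%) at least 2-fold lower. Of the 429 genes higher in *mdx* over B10 and compared in both pairs, 422 had a ratio above 0 in D2-*mdx* over DBA and 320 were at least 2-fold higher there, out of 452 higher in that pair. Of the 360 lower genes, 348 were below 0 and 233 at least 2-fold lower, out of 381. Over all 8266 genes compared in both, 45.9% were above 0 in D2-*mdx* over DBA. A gene under 10 CPM in 1 library of that pair was compared only through its level in the other, which sets its direction. These counts are therefore a description and lend no support to a direction. *Dmd* had a ratio of -1.53 (-1.58 to -1.47) there, *Cdkn2a* 5.49 (5.15 to 5.85), *Timp1* 5.83 (5.43 to 6.25), *Actc1* 6.06 (5.49 to 6.71) and *Spp1* 7.55 (7.13 to 8.01). Within that limit, most genes past 2-fold in *mdx* over B10 and compared in both had the same direction over all kept cells. Cells that carried markers of other cell types, counted as above, made up 39.0% of kept D2-*mdx* cells and 9.14% of kept DBA cells. The shares were 17.6% in *mdx* and 4.79% in B10. The part of such cells in the ratios of D2-*mdx* over DBA was not tested. *Col1a2* had 3.32 (3.23 to 3.41), *Postn* 2.44 (2.31 to 2.56) and *Cdkn1c* 3.39 (3.31 to 3.46), against 5.47, 5.32 and 4.98 in *mdx* over B10, and these differences between pairs were not tested. Among the lower genes, *Slc22a3* had -4.88 (-5.15 to -4.62), *Hlf* -4.26 (-4.69 to -3.86) and *Meg3* -2.91 (-2.94 to -2.88). The sarcomere and mitosis lists had medians of 3.05 and 2.70 in that pair. None of the Notch and cell polarity genes compared in *mdx* over B10 was 2-fold lower in D2-*mdx* over DBA.

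**Figure D5:**
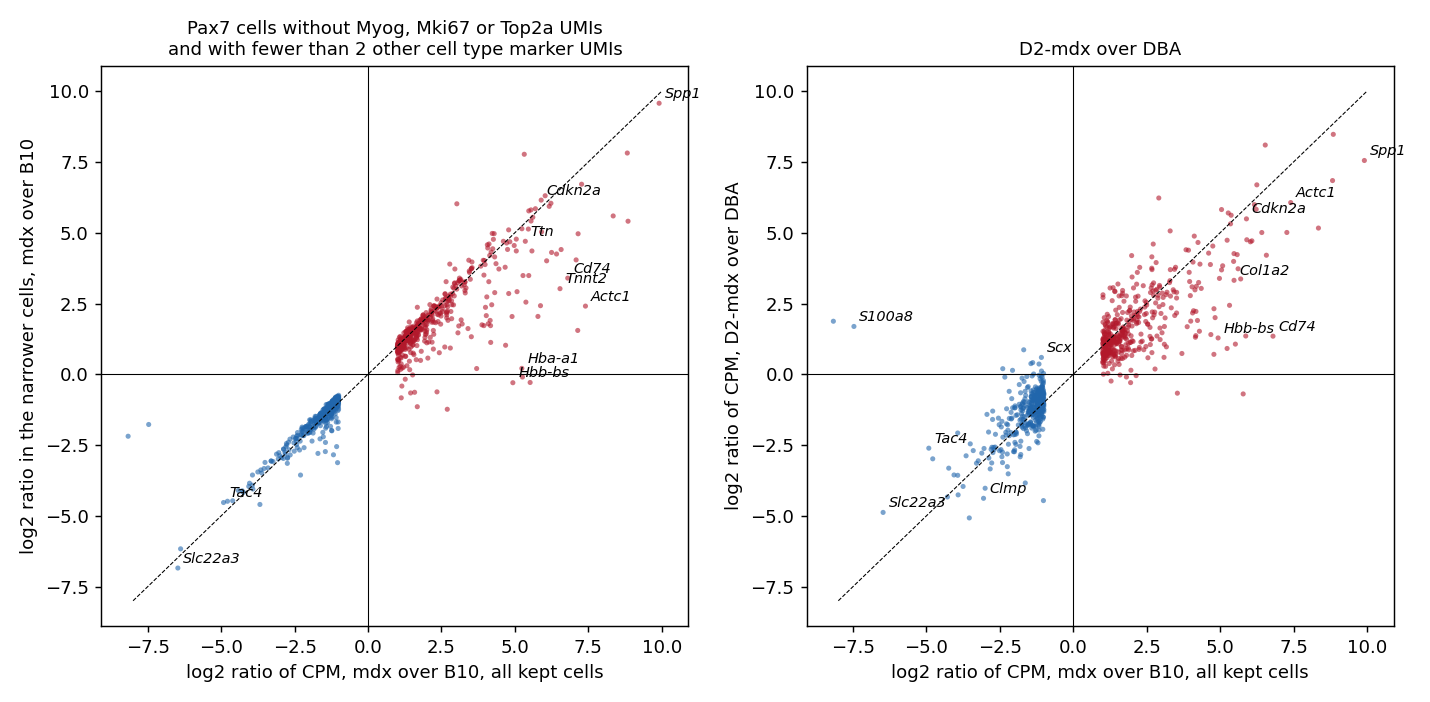
Log2 ratios of the genes at least 2-fold higher (red) or lower (blue) in *mdx* over B10 (horizontal axes) against their ratios in narrower cells, *Pax7* cells without *Myog*, *Mki67* or *Top2a* UMIs and with fewer than 2 UMIs over 35 markers of other cell types (left panel, vertical axis), and against D2-*mdx* over DBA (right panel, vertical axis). Dashed lines mark equal ratios, and most genes keep their direction. The right panel holds only genes of at least 10 CPM in D2-*mdx* or DBA. The haemoglobin genes lie near 0 on the vertical axis of the left panel. In the right panel *S100a8* lies below 0 on one axis and above it on the other.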

How the data were processed

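Single-cell suspensions of sorted hindlimb muscle cells were sequenced as 1 droplet 3′ library per strain from 2 pooled mice. The deposited values are counts of UMIs per gene and barcode in filtered matrices, which the authors made with Cell Ranger 3.0.1 against mm10 (27998 genes). Cells outside the limits on genes (1000 to 5000) and mitochondrial UMIs (8%) were left out, as were cells with under 2 UMIs over *Pax7*, *Myf5*, *Myod1* and *Myog*. Doublets were not removed. As an alternative the cells with the highest Scrublet scores (scanpy 1.11.5) were removed. The share removed was 0.008 for every 1000 cells within the limits on genes and mitochondrial UMIs. UMIs were summed over cells in Python 3.11.15 with numpy 2.4.6 and pandas 2.3.3, and exact intervals came from scipy 1.17.1. Scaling factors of edgeR 4.0.16 and DESeq2 1.42.0 (R 4.3.3) were alternatives, and no count model was fitted because each strain has 1 library. The calculation of the intervals and of the 2-fold calls was checked on Poisson counts drawn independently for each gene. Such counts leave out the clustering of UMIs in cells, so they do not test the intervals for these data.

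Named genes were *Dmd*, the selection genes, the 15 highest and the 15 lowest ratios among genes with at least 50 CPM, the 5 largest gains and losses in CPM, and members of 55 gene lists. A library at 0 counts got a floor of 3 counts. The cells, the comparison and the lists were chosen with earlier results of these data known, so no pattern here is independent evidence. Gene positions came from GENCODE M21, which matched 27722 of the 27998 genes, and promoters from RefSeq on GRCm38.p6. Deposited matrices of the other strains entered only the comparison with D2-*mdx* and DBA. Results for some genes that the rule would name are not reported here.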

Additional observations from a re-analysis of the deposited data

Results flagged for a closer look

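Among 823 list members and named genes, 224 were at least 2-fold apart between *mdx* and B10, and 3 of these had the opposite sign in D2-*mdx* over DBA, with both counting intervals clear of 0. With 1 library a group, the difference between the pairs was not tested. *Ntn1* (netrin 1, a guidance cue) was at 17.8 CPM in B10 and 7.63 CPM in *mdx*, which is -1.23 (-1.41 to -1.04) as a log2 ratio. It was at 4.58 CPM in DBA and 5.88 CPM in D2-*mdx*, a ratio of 0.36 (0.05 to 0.67). Both of these lie under 10 CPM, so *Ntn1* was not among the genes compared in that pair. *Scx* (scleraxis, the transcription factor of tendon cells) was counted 2231 times in B10 and 1111 times in *mdx*, a ratio of -1.09 (-1.19 to -0.98), and at 18.4 and 27.9 CPM in the other pair, a ratio of 0.60 (0.45 to 0.74). In *Pax7*-only cells the *Scx* ratio of *mdx* over B10 was -1.58. *S100a8* (a neutrophil calcium-binding protein) had a ratio of -7.47 (-9.10 to -6.24) in *mdx* over B10 and of 1.69 (1.61 to 1.77) in D2-*mdx* over DBA, and 827 of its 838 UMIs in B10 lay in 1 cell.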

How the results depend on the processing

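No paired analysis was possible because each strain has 1 library. The 481 genes at least 2-fold higher and 403 lower became 146 and 156 with a minimum of 50 CPM, and 2645 and 1717 with no minimum, where every added gene lies under 10 CPM in both libraries. The planned removal of cells with 2 UMIs over all 50 markers of other cell types left 4.01% of B10 and 10.7% of *mdx* cells, with 683 genes lower. The other alternatives gave 328 to 581 higher and 336 to 480 lower genes. Without cells carrying the 35 markers there were 368 higher and 406 lower genes. In *Pax7*-only cells without them there were 328 higher and 377 lower, so lower genes outnumbered higher ones in both settings. Counts split 479 to 405 under TMM, 492 to 370 under DESeq2 size factors and 438 to 455 as UMIs per cell. The *Dmd* ratio of -1.36 was -1.56 with at least 500 genes and no upper limit, -1.17 under that planned removal, -1.21 in *Pax7*-only cells, -1.22 in those without cells carrying the 35 markers, -1.14 as a mean over cells, -1.42 as UMIs per cell and -1.12 after thinning. The share of B10 cells with a *Dmd* UMI was 55.4% under the planned removal and 87.0% unthinned. That of *mdx* cells was 34.4% in *Pax7*-only cells, 35.2% in those without cells carrying the 35 markers, and 55.7% unthinned. Causes were not tested.

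Among named genes and list medians at least 2-fold apart, signs reversed under these alternatives only for markers of other cell types, and values within 2-fold, such as those of *Myod1* and *Myf5* and several list medians, also crossed 0. Under the planned removal, *Cd74* had a ratio of -0.48 and *Hbb-bs* of -0.16. The medians were -1.07 for endothelial, -0.37 for white blood cell and -0.16 for erythrocyte markers. These genes are among the markers by which cells were removed, and erythrocyte genes are also among the 35. Their falls therefore follow from the removal and are a description only. Without cells carrying the 35 markers (chosen after seeing the data), *Hbb-bt* had -0.50, *Hba-a2* -0.063 and *Hbb-bs* -0.30, and the erythrocyte median was -0.18. In *Pax7*-only cells without them, the values were -0.29, -0.10 and -0.30, with a median of -0.19. With no minimum, the fibroblast and tenocyte median was 1.94. Depth limits genes under 10 CPM, and mice within a strain cannot be told apart.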

Other observations

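Guidance and angiogenic signals went both ways, with 5 of 17 compared genes at least 2-fold higher in *mdx* and 4 lower. Several of the higher genes, *Sema3a* and *Efnb2* among them, reached 10 CPM only in *mdx*, so the count of 5 is a description. *Sema3a*, a secreted repellent of motor axons, was at 1.45 CPM in B10 (1.11 to 1.86) and 27.5 in *mdx* (26.0 to 29.1), and its ratio of 4.25 was 4.39 in *Pax7*-only cells. It was at 3.90 CPM in *mdx* cells without selection genes, so its signal was mainly in the myogenic cells. *Nrp1*, the receptor that binds it, was at 8.08 and 70.6 CPM, with a ratio of 3.37 without cells carrying markers of other types. *Angpt1*, a vessel-stabilising ligand, was at 9.99 and 24.5 CPM, and *Efnb2*, an ephrin, at 2.996 and 15.4 CPM. *Vegfa*, the main vessel growth factor, was lower, at 56.9 and 10.4 CPM. The netrins *Ntn1* and *Ntn5* were lower too, the second at 61.1 and 21.6 CPM.

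Hox genes keep a record of position along the limb and trunk, and 10 of 39 listed genes were compared. None was 2-fold higher and 2 were 2-fold lower, *Hoxc8* at 72.5 and 27.8 CPM and *Hoxc4* at 27.2 and 13.0 CPM, with a median of -0.58. *Hoxa9* was at 36.9 and 34.8 CPM. Of 25 interferon-stimulated genes 2 were higher and 1 lower, and of 12 MHC class I genes 1 was lower, so few members of either group passed 2-fold, with medians of -0.23 and -0.25. *Ifitm1*, at 1.95 and 15.1 CPM, was at 452 CPM in *mdx* cells without selection genes. Of 9 chemokine and cytokine genes *Ccl2* (6.13 and 16.3 CPM), *Cxcl2* and *Tnfrsf12a* (the receptor of TWEAK, 55.1 and 121 CPM) were higher. Without cells carrying the 35 markers, 2 of the 9 were 2-fold higher and 2 were 2-fold lower. *Tnfrsf12a* had a ratio of 1.18 in *Pax7*-only cells without cells carrying the 35 markers.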
